A study of Mus musculus with 2 samples.

Results

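Transcripts that RefSeq, the curated sequence collection, lists as noncoding RNA were followed across the polysome gradients of NIH3T3 mouse fibroblasts, an established line, in the presence or absence of endoplasmic reticulum stress. Members were selected on measured values, namely the detection flags: they were the array's RefSeq accessions beginning with NR whose signal was well above background, by the scanner software's flag, in at least 1 of the 2 channels on both arrays. Of 350 such accessions on the array, 138 met this rule (39.4%), against 10918 of 18754 coding accessions (58.2%), and they stood for 136 gene symbols. Control cells received no thapsigargin, and stressed cells received 10 µM thapsigargin, which blocks the pump that loads calcium into that organelle, for 3 h. Per the study's methods, detergent lysates were spun and the supernatant was run through a 10 to 40% sucrose gradient. Polysome-bound RNA (P, labelled with Cy3) and free plus monosome RNA (FM, labelled with Cy5) of each condition were hybridised together to 1 two-colour array. RNA came from 3 pooled preparations per condition, so differences between the conditions could not be tested against replicates, and p-values are absent throughout. With 1 array per condition, precision is limited by the number of arrays. The nearest measure of error is the spread between probes of one transcript, whose change had a median SD of 0.45 over the 17 members with more than 1 probe.

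Ribosomes gather on coding mRNAs and carry them into the heavy part of a sucrose gradient, whereas RNAs without translating ribosomes stay near the top. Phosphorylation of the initiation factor eIF2 during endoplasmic reticulum stress lowers initiation on most mRNAs. Many noncoding transcripts have short reading frames and some meet ribosomes, among them the spliced host transcripts of small nucleolar RNAs (snoRNAs), of which Gas5 is known to be degraded in a way that depends on translation. Others, such as Malat1 of nuclear speckles and Neat1 of paraspeckles, are known as nuclear RNAs. Transcribed pseudogenes resemble a coding parent, and an array probe may be unable to tell the pair apart. The measure used throughout is log2 P/FM, in which the background-subtracted P signal is divided by the FM signal, and a change is its value in stressed cells minus its value in control cells.

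The 138 members were sorted by name into 8 transcripts of a list of well-known lncRNAs, most of them nuclear, 7 snoRNA hosts, 7 small structured RNAs, 36 pseudogenes and 80 others. The array interrogates each with probes of 60 bases, and the following are the probes of the brightest nuclear lncRNA, the paraspeckle lncRNA, Norad and the 2 hosts with the largest changes among those with both fractions measured, because the differences below rest on what these sequences capture. Sequences are those deposited, 5′ to 3′ in lower case, with positions on mm9.
Malat1 (chr19:5798230-5798289, minus strand): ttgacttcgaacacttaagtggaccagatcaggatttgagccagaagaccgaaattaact
Neat1 (chr19:5842564-5842623, minus strand): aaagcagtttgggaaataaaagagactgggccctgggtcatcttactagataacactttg
Norad (chr2:156215293-156215352, minus strand): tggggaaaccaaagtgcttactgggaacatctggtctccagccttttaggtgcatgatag
Snhg17 (chr2:158181558-158181617, minus strand): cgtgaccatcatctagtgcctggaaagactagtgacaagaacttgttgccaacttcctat
Snhg16 (chr11:116537021-116537080, plus strand): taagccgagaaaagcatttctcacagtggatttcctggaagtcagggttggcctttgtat
Malat1 was also covered by 3 further probes on chromosome 19, and the other transcripts printed here by 1 probe each.

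As a group the members lay on the free side of the gradient in both conditions. Their median log2 P/FM was -1.01 in control cells and -1.04 in stressed cells, against 0.30 and -0.31 for the coding mRNAs that met the same rule. In control cells 102 of 138 members (73.9%) had more FM than P signal, against 39.2% of all transcripts. Values of -1.5 or lower were found for 52 members (37.7%) in control cells, against 6.11% of all 11056 coding and noncoding transcripts, and for 55 (39.9%) in stressed cells, against 14.3%. At the far end, 15 members (10.9%) were at -4 or lower in control cells, against 0.38% of all transcripts. They comprised 5 snoRNA hosts, 4 lncRNAs of the list, 2 small structured RNAs (Rmrp and Snora69), 2 pseudogenes (Gm10653 and 1700022A21Rik) and 2 others (Mir22hg and Dnm3os). For 9 of these 15 the control P signal was well above background. A transcript can meet the rule through FM alone, and it must then have a low log2 P/FM. The P signal was not well above background for 31 members in control and 23 in stressed cells, and such a log2 P/FM is an upper bound. For 97 members all 4 signals were well above background (for 96 of them in a single probe), and over these the medians were -0.79 in control and -0.80 in stressed cells.

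**Figure D1:**
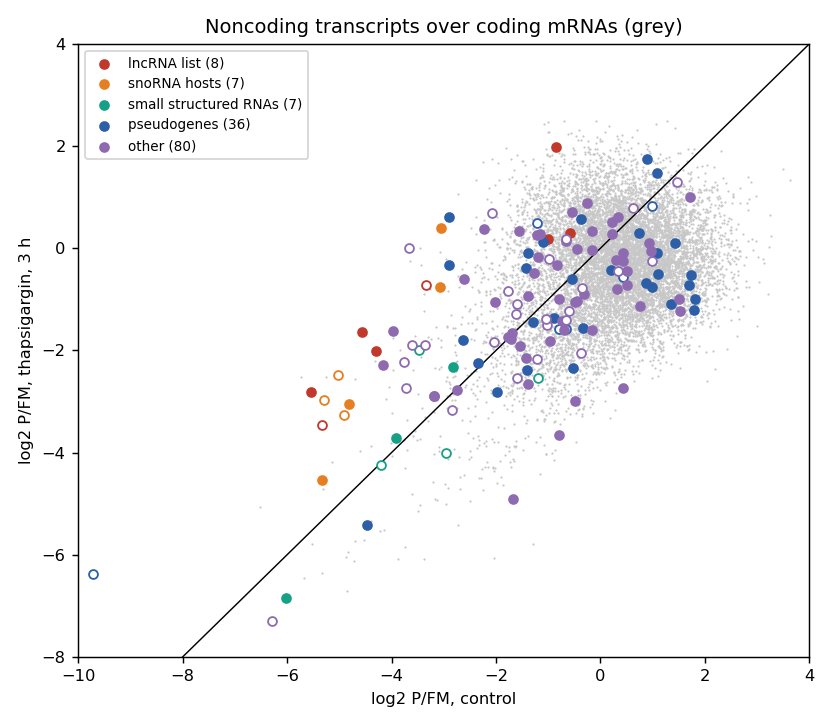
Log2 P/FM in control cells (horizontal) against stressed cells (vertical) for the 138 noncoding members, coloured by group, over 10918 coding mRNAs in grey, with the line of equal values. Open points have at least 1 of 4 signals not well above background, and the lncRNA list and the snoRNA hosts all lie above the line.

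The median change of the members was -0.02, whereas that of coding mRNAs was -0.70. Values were higher by 1 or more in stressed cells for 36 members (26.1%), against 11.3% of all transcripts, and lower by 1 or more for 28 (20.3%), against 40% of all. With normexp background correction these contrasts were smaller. Of the 138 members, 3 listed lncRNAs, 4 hosts, 5 pseudogenes and 4 others were then higher by 1 or more, beside 983 of 10918 coding mRNAs. Lower by 1 or more were 1 small structured RNA, 8 pseudogenes and 8 others, beside 2161 coding mRNAs. The median change of coding mRNAs was then -0.006, beside -0.058 in the pseudogenes and 0.16 in the others. Of the 36, 23 were measured in all signals, 7 were lower bounds, 1 was an upper bound and 5 had no settled value. Each of the 36 had a log2 P/FM of 0 or lower in control cells, a combination found in 10.1% of all transcripts. Such a start was common to rises in general, since 1116 of the 1244 transcripts higher by 1 or more had it. Among the 97 members with all signals above background the counts were 23 higher (23.7%, against 10.7% of all such transcripts) and 24 lower (24.7%, against 40.8%). The members' changes ran from -3.24 to 3.66, and the groups differed in where they lay within this range.

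The median change also moved with brightness (A, the mean log2 signal over both channels and arrays). Members with A from 7 to 9 had a median change of -0.06 (26 transcripts) and coding mRNAs of that range -0.65. With A of 9 or more the medians were -0.68 (33 members) and -1.41 (3062 mRNAs). At A from 5.5 to 7 they were 0.95 (34 members) and -0.15 (2755 mRNAs), and below 5.5 they were -0.33 and -0.46. The difference between noncoding and coding transcripts was thus largest in the range from 5.5 to 7 and smallest among the dimmest.

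The 10 probes for spiked-in control RNA differed by a median of -2.44 in log2 P/FM between the stress and control arrays, with a range from -2.67 to -2.16. Whether equal amounts of spike-in RNA entered each fraction is not given in the sources used here. By the study's methods, the RNA amounts labelled followed those recovered, with more P than FM RNA in control cells and more FM than P RNA in stressed cells. Changes below are given without scaling, as the study's methods describe, and scaling to the spike-in probes would add 2.55 to each of them. Any change between -2.55 and 0 would then turn positive, the all-member median among them (2.53). All 9 fibroblast markers looked up met the rule, none of 4 epithelial and 2 endothelial ones did, and of the blood and neuronal ones only Cd3e and Tubb3 did.

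The listed lncRNAs had more signal in FM in control cells and a smaller difference in stressed cells. These values describe RNA in the supernatant of the spun lysate, and how much of a nuclear RNA it holds was not measured. For the 8 transcripts the medians were -3.82 in control and -1.18 in stressed cells. All 8, which include separate accessions of Tug1, were higher in stressed cells, beside 3286 of 10918 coding mRNAs. Of the 8, 7 were higher by 1 or more, against 11.3% of all transcripts. The median change was 2.45 (2.50 over the 6 with all signals above background). Signals were counted over all probes of a transcript, and Kcnq1ot1 has no single probe with all of them, without which the median was 2.72 over 5. With normexp background correction the list's median change was 0.79 and 3 of 8 were higher by 1 or more, beside 983 of 10918 coding mRNAs. The 8 changes were positive in the alternatives that hold all of them except normexp, where Oip5os1 came to -0.09, and 1 of the 14 single probes (of Kcnq1ot1) was negative. Norad and Oip5os1 are known mainly from the cytoplasm, and without them the medians were -2.17 in control and -0.27 in stressed cells, with a median change of 2.45.

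**Figure D2:**
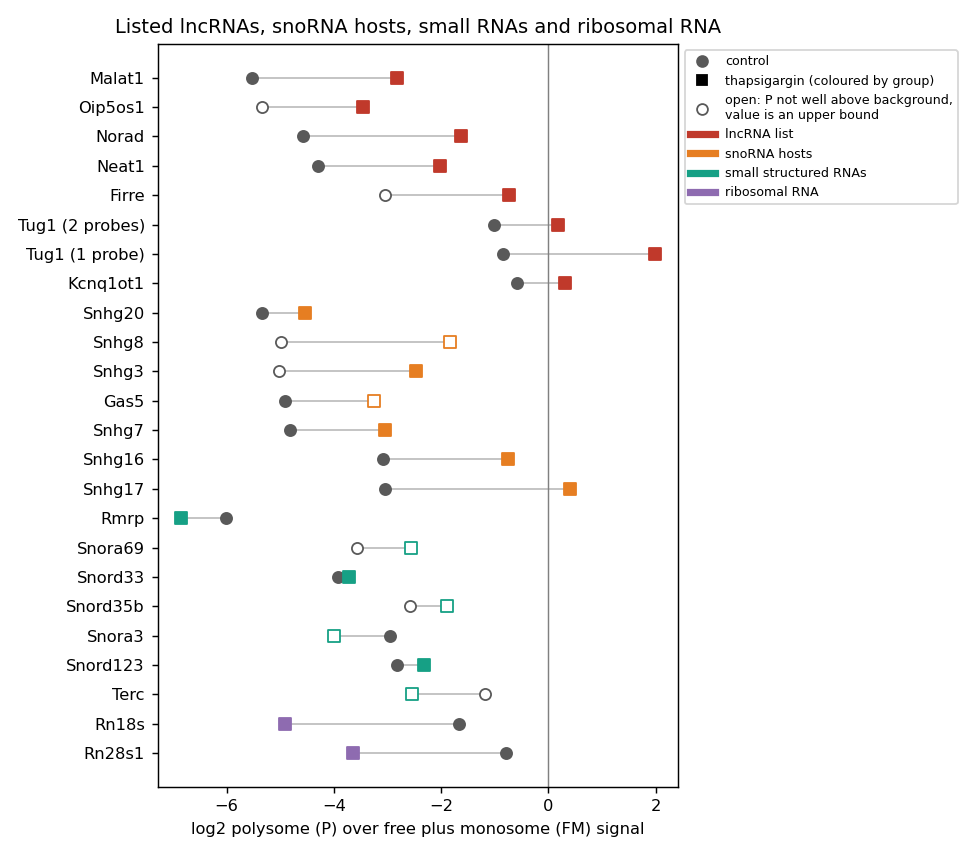
Log2 P/FM of each listed lncRNA, snoRNA host, small structured RNA and ribosomal RNA in control cells (circles) and stressed cells (squares), with open symbols at the upper bound where the P signal was not well above background. The lncRNAs lie further right in stressed cells, as do the hosts with filled symbols, and both ribosomal RNAs lie further left; Gas5 and Snhg8 have an open symbol in stressed cells, so their direction is not settled.

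Malat1, which organises factors at nuclear speckles, was among the brightest. Its signal (geometric mean over 4 probes, in scanner units) was 434 in control and 935 in stressed cells in P and 20136 and 6581 in FM. P thus went up and FM went down, and log2 P/FM went from -5.54 to -2.82. The 4 probes ranged from -5.79 to -4.99 in control and from -2.97 to -2.65 in stressed cells and did not overlap between the conditions. The change was 2.72 ± 0.30 (SD over probes, n = 4). Neat1, the scaffold of paraspeckles, had signals of 356 in control and 805 in stressed cells in P and 6980.1 and 3262 in FM. Its log2 P/FM went from -4.29 to -2.02, a difference in the same direction by 2.27.

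Norad, a cytoplasmic RNA that binds Pumilio proteins, had signals of 20.4 in control and 42.2 in stressed cells in P and 483 and 131 in FM. Its log2 P/FM went from -4.57 to -1.63, a change of 2.94 (0.83 with normexp). Oip5os1, also known as Cyrano, lacked a P signal well above background in the control, so that its log2 P/FM was at most -5.34, and reached -3.47 in stressed cells, at least 1.87 higher. Firre, a nuclear lncRNA from the X chromosome, was at most -3.05 in control cells for the same reason and -0.73 in stressed cells, at least 2.32 higher (0.58 with normexp).

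Tug1 and Kcnq1ot1 were the members of the list nearest to balance in control cells. Of the 2 accessions of Tug1, a lncRNA found in nucleus and cytoplasm, the one with 1 probe went from -0.85 to 1.98 and the one with 2 probes from -1.01 to 0.19. Their changes of 2.83 and 1.19 differed by more than the SD of 0.35 between the 2 probes of the latter, and with normexp were 1.92 and 0.75. Kcnq1ot1, the antisense lncRNA of an imprinted cluster, went from -0.58 to 0.31 on average, but its 2 probes disagreed. One probe changed by 2.20, with P above background on both arrays but FM not in stressed cells, and the other by -0.42, with P above background on neither array.

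The direction of the 2 fractions can be read separately, as far as signals of different arrays can be compared. In coding mRNAs the median P signal was 0.02 higher on the stress array (log2) and the median FM signal 0.70 higher. Taken as means over probes, P was higher and FM lower for all 8 lncRNAs of the list, for 35 of 138 members (25.4%) and for 9.38% of all transcripts. The 8 include separate accessions of Tug1, and control P was not well above background for Oip5os1 and Firre. A probe of Kcnq1ot1 went the other way (-0.04 in P and 0.38 in FM), with P above background on neither array. In the list the median difference was 1.08 in P and -1.05 in FM. The opposite combination, lower P and higher FM, was found in 44 members (31.9%), against 43.7% of all transcripts. By the means over probes it was found in none of the listed lncRNAs or hosts.

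**Figure D3:**
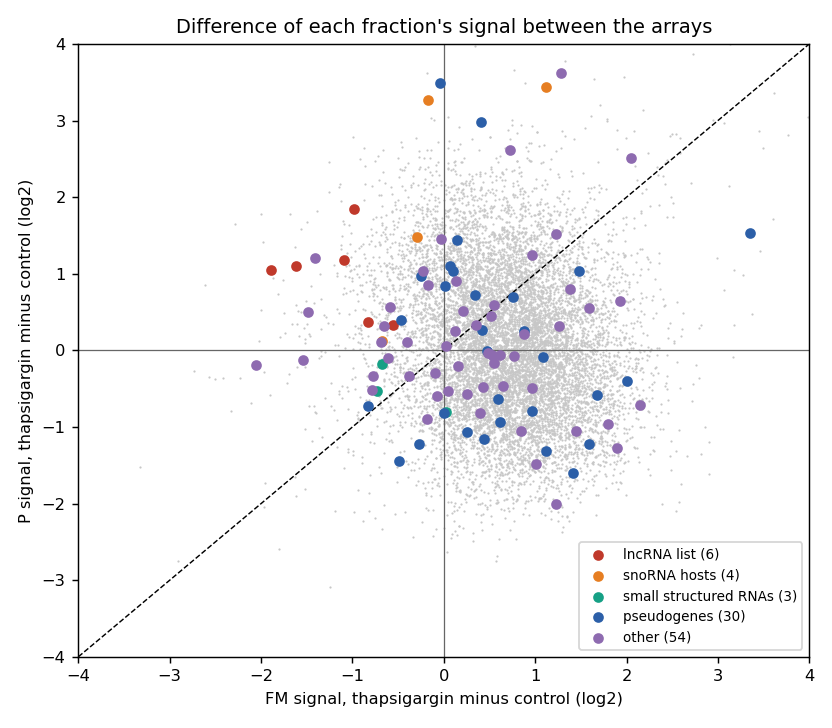
Difference between the arrays (stress minus control, log2) in the FM signal (horizontal) and the P signal (vertical) for the 97 members with all signals well above background, over coding mRNAs in grey; on the dashed line log2 P/FM is equal in both conditions. The 6 lncRNAs shown lie at the upper left, where P was higher and FM lower.

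All 7 NR accessions on the array with a listed snoRNA host name were members (a probe for a further host, Snhg1, carries another kind of accession). Hosts were found by name only, so any host under another name is counted in another group. The 7 formed the group with the lowest median in control cells (-4.92), which was -2.97 in stressed cells. By the signals as they stand each was higher in stressed cells (6 of 7 with normexp), with a median change of 2.32. Of the 7, 6 were higher by 1 or more, against 11.3% of all transcripts. Only 4 had all signals above background, with a median of 2.05, and the direction of Gas5 and Snhg8 is not settled because their stressed P signals were not well above background. These transcripts carry snoRNAs in their introns, and after splicing their exons are exported. The group's median change was positive in each alternative that includes hosts, from 1.03 with normexp to 4.87 with spike-in scaling. With normexp 4 of 7 were higher by 1 or more, beside 983 of 10918 coding mRNAs.

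Snhg17 and Snhg16 showed the largest differences with both fractions measured. Snhg17 had signals of 738 in control and 7117 in stressed cells in P and 6094 and 5392 in FM. P was higher while FM differed little, and log2 P/FM went from -3.05 to 0.40. It was the one host with more P than FM signal in stressed cells. Snhg16 had signals of 457 in control and 4934 in stressed cells in P and 3859 and 8355 in FM, and its log2 P/FM went from -3.08 to -0.76 with both signals higher. Snhg7 went from -4.82 to -3.05, and Snhg20 from -5.33 to -4.54, the smallest change measured in the group (0.79). With normexp the changes of these last 2 were 0.22 and -0.28.

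The remaining hosts give bounds. Gas5 was at -4.92 in control cells and at most -3.26 in stressed cells, where its FM signal went from 1056 to 139 and P was not well above background. Snhg3 was at most -5.02 in control and -2.47 in stressed cells, a change of at least 2.55. Snhg8 had P not well above background on either array and thus gives no change, and its FM signal went from 451 to 39.5. FM was thus lower in stressed cells at these probes of Gas5, Snhg3 and Snhg8, in contrast to Snhg16. For Gas5 this was not so at a far brighter probe for another transcript of the gene, which is no NR accession and had all signals well above background: its FM signal went from 46610.2 to 85106 and its P signal from 730.4 to 3764. Its log2 P/FM went from -5.996 to -4.50.

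Many host genes of snoRNAs are known for a tract of pyrimidines at the start of the transcript, as in ribosomal protein mRNAs, whose translation depends on it. The windows below hold 20 bases before and 30 from the start listed in RefSeq (GRCm38.p6), with the first 5 bases of the transcript in capitals. They show the 3 hosts whose capitals are a C followed by 4 pyrimidines (C or T). For contrast they show Snhg17, whose capitals are all pyrimidines but begin with T. Gas5 and Snhg17 each have a further listed start, not printed, that did not match.
Gas5 (chr1:161035146-161035195, plus strand): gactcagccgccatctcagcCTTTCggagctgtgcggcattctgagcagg
Snhg7 (chr2:26640215-26640264, minus strand): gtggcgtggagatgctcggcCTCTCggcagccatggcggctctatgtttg
Snhg8 (chr3:123508307-123508356, minus strand): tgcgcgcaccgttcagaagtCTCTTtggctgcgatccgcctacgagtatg
Snhg17 (chr2:158361480-158361529, minus strand): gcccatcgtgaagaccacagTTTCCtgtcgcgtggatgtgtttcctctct
A C followed by 4 pyrimidines at any listed start, searched on the transcript's strand, was found in 3 of 7 hosts (42.9%), 13 of 61 cytosolic ribosomal protein genes (21.3%), 4 of the 71 other member genes with an entry (5.63%) and 3.01% of all 27025 genes. A match describes these letters and is not a test of the tract's use. Ribosomal protein mRNAs are known for the tract, so the low share among them shows that this search can miss it. A gene without a match need not lack the tract, and the shares do not rank the sets by tract. The 74 ribosomal protein mRNAs on these arrays went from a median of -1.91 to -4.04 with none higher in stressed cells, whereas of the 3 hosts with the letters Snhg7 was higher, Gas5 was higher at the brighter probe but not settled at the member probe, and Snhg8 had no settled direction. With spike-in scaling the ribosomal protein median would also turn positive.

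The small structured RNAs stayed on the free side in both conditions, with a median of -3.47 in control and -3.72 in stressed cells. Whether these signals come from the mature RNAs or from longer precursors was not tested. Their median change was -0.03, with 3 members higher and 4 lower. This median was positive without background subtraction (0.50), with the processed signals (0.67), when loess (0.51) or centring (0.57) was applied, and on the spike-in scale (2.52). Rmrp, the RNA of the ribonuclease that processes ribosomal RNA precursors, had signals of 52.5 in control and 30.1 in stressed cells in P and 3409 and 3468 in FM. Its log2 P/FM of -6.02 in control and -6.85 in stressed cells were the lowest values of any member with all signals above background.

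Of the snoRNAs, which guide modification of ribosomal RNA, only Snord123 and Snord33 had every signal above background. Snord123 went from -2.82 to -2.32 and Snord33 from -3.92 to -3.72, changes of 0.50 and 0.20 that are close to or below the median SD between probes. Snora3 went from -2.96 to at most -4.01. Snora69, Snord35b and Terc, the template of telomerase, had P not well above background on either array and give no change. Mammalian snoRNAs lie in introns, and the mRNAs of 3 coding host genes could be set beside them. Rpl27a, host of Snora3, went from -2.15 to -3.31, Rpl39, host of Snora69, from -4.52 to -5.72 and Rpl13a, host of Snord33, from -2.28 to -4.50. The change of Snord33 was 2.42 above that of Rpl13a.

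Ribosomal RNA, the structural RNA of the ribosome itself, was further towards FM in stressed cells, with a median change of -3.05 over 2 transcripts. Rn18s had signals of 61813 in control and 15328 in stressed cells in P and 196927 and 460874 in FM, the brightest of all members. Its log2 P/FM went from -1.67 to -4.91, and its 2 probes changed by -3.01 and -3.46. Rn28s1, seen by 1 probe, had signals of 5867 in control and 3569 in stressed cells in P and 10116 and 44898 in FM and went from -0.79 to -3.65. For both, P was lower and FM higher in stressed cells, and both stayed negative in each alternative that included them, the spike-in scaling as well. By the study's methods, polysome fractions of control cells held more total RNA than FM, whereas both ribosomal RNAs gave more FM than P signal there. Why these differ was not tested, so the signals may not follow the amounts of ribosomal RNA.

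The 36 pseudogenes were split between both sides of the gradient. Their median was -0.45 in control and -0.64 in stressed cells, and 20 of 36 had more FM than P signal in control cells. The median change was -0.70, beside -0.70 in coding mRNAs, with 7 higher (19.4%, against 11.3% of all transcripts) and 12 lower by 1 or more (33.3%, against 40%). It was near 0 after centring (-0.10) or normexp (-0.06) and turned positive after loess (0.31, where coding mRNAs had -0.16) and with spike-in scaling (1.85).

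**Figure D4:**
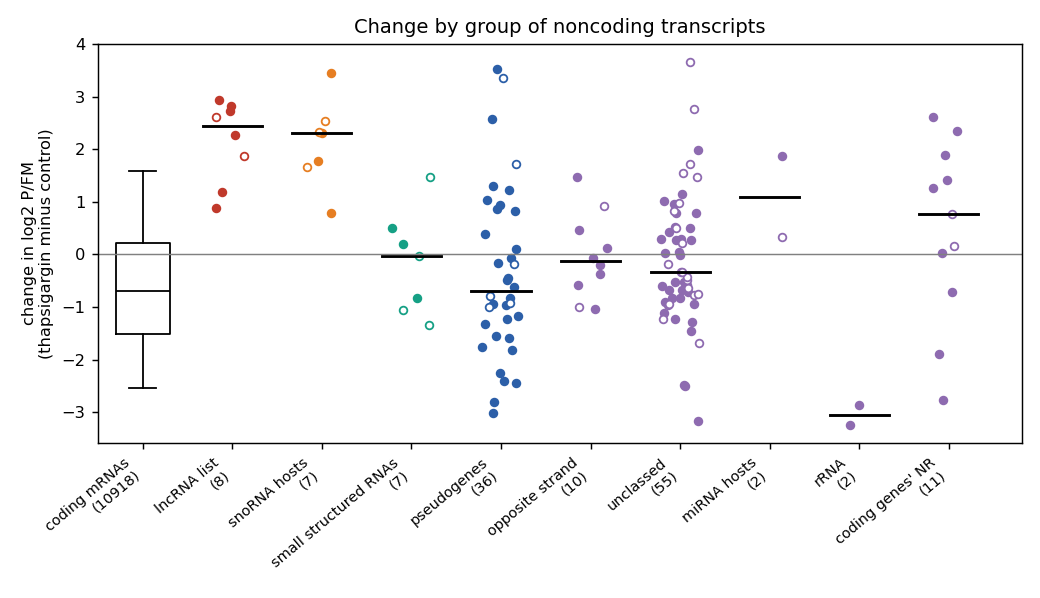
Change in log2 P/FM (stress minus control) of every member by group, with the group median as a bar, beside coding mRNAs (box: quartiles and median, whiskers: percentiles 5 and 95). Open points have a signal not well above background; the lncRNA list and hosts lie above 0 and both ribosomal RNAs below, while pseudogenes lie on both sides of 0. With spike-in scaling every value would be 2.55 higher.

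The brightest pseudogenes differed in their side of the gradient. Gm6498, 3000002C10Rik and Gm5069 had more P than FM signal in control cells and less in stressed cells. Their log2 P/FM went from 0.99 to -0.76, from 1.10 to -0.50 and from 0.86 to -0.69, and the change of each turned positive after loess (0.21, 0.31 and 0.34) and with spike-in scaling. The probe of Gm6498 and a probe of Gm5069 are alike over much of their length, so they may not be separate readings. Gm10653 and 1700073E17Rik were on the free side throughout. Gm10653 went from -4.47 to -5.42 with FM signals of 262391 and 217068, the brightest pseudogene, and 1700073E17Rik went from -1.41 to -2.38. E130201H02Rik also lay on the free side and hardly changed (from -2.34 to -2.24), and Selenok-ps1 lay near balance (from 0.19 to -0.42).

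The largest differences went in both directions. 1700049L16Rik went from 1.80 to -1.21, 2210409E12Rik from 1.81 to -0.999 and Gm4371 from 1.36 to -1.08, all with lower P and higher FM. With normexp the changes of the 3 were -0.50, -0.91 and -1.51, so that the calls of 1700049L16Rik and 2210409E12Rik were lost. In the other direction, 6820431F20Rik, named on the array as a cadherin 11 pseudogene, had signals of 279 in control and 3125 in stressed cells in P and 2095 and 2042 in FM. Its log2 P/FM went from -2.91 to 0.61 with FM nearly equal on both arrays. 2610005L07Rik, whose probes also lie on chromosome 8, went from -2.91 to -0.33, and its 2 probes changed by 2.26 and 2.90. Smaller increases were measured for 4632415L05Rik (from -1.39 to -0.08), 2700099C18Rik (from -1.42 to -0.38), 5830417I10Rik (from -0.37 to 0.57), Zfp862-ps (from 0.89 to 1.75) and Gm3020 (from -2.62 to -1.79; -0.13 with normexp). Ppp4r1l-ps had a P signal not well above background in control cells and was at least 1.27 higher in stressed cells.

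Several pseudogene probes share long runs of letters with a probe of a coding mRNA on the same array, so that their signal may include the coding transcript. A run of 18 letters or more was found for 7 members, and 3 are printed because they show how much of a probe can be common to both, with the shared run in capitals.
Pisd-ps3 (chr11:3031835-3031894, plus strand; 46 letters shared with Pisd): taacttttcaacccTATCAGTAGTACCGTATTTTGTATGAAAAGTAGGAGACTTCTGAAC
H2-K2 (chr17:34112479-34112538, minus strand; 35 letters shared with H2-Q2): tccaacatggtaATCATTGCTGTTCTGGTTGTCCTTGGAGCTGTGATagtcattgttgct
Tyms-ps (chr10:87430357-87430416, plus strand; 22 letters shared with Tyms): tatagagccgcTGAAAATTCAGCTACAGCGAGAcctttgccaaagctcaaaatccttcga
Pisd, the mitochondrial enzyme that makes phosphatidylethanolamine, and Pisd-ps3 went from -0.90 to 0.04 and from -1.10 to 0.12. Tyms, which makes thymidylate, went from 1.48 to -0.89 and Tyms-ps from 1.69 to -0.72. H2-K2, of the class I histocompatibility genes, went from 1.73 to -0.53, and the coding H2-Q2 from 1.58 to -0.41. The remaining shared runs joined 2700099C18Rik with Ndc80, Gm6548 with Eef1a1, Selenok-ps1 with Selk and Gm5766 with Rpl7a, and measured between 20 and 25 letters. 2700099C18Rik went from -1.42 to -0.38 and Ndc80, a kinetochore subunit, from 0.31 to -0.01. Gm6548 went from -1.98 to -2.81 and the elongation factor mRNA Eef1a1 from -2.53 to -3.62. Gm5766 went from -0.53 to -2.34 and Rpl7a, a ribosomal protein mRNA, from -0.82 to -2.48. 2700099C18Rik thus lay apart from its partner in control cells, whereas Gm5766 lay close to it in both conditions. How much of a pseudogene's signal came from the parent was not tested.

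**Figure D5:**
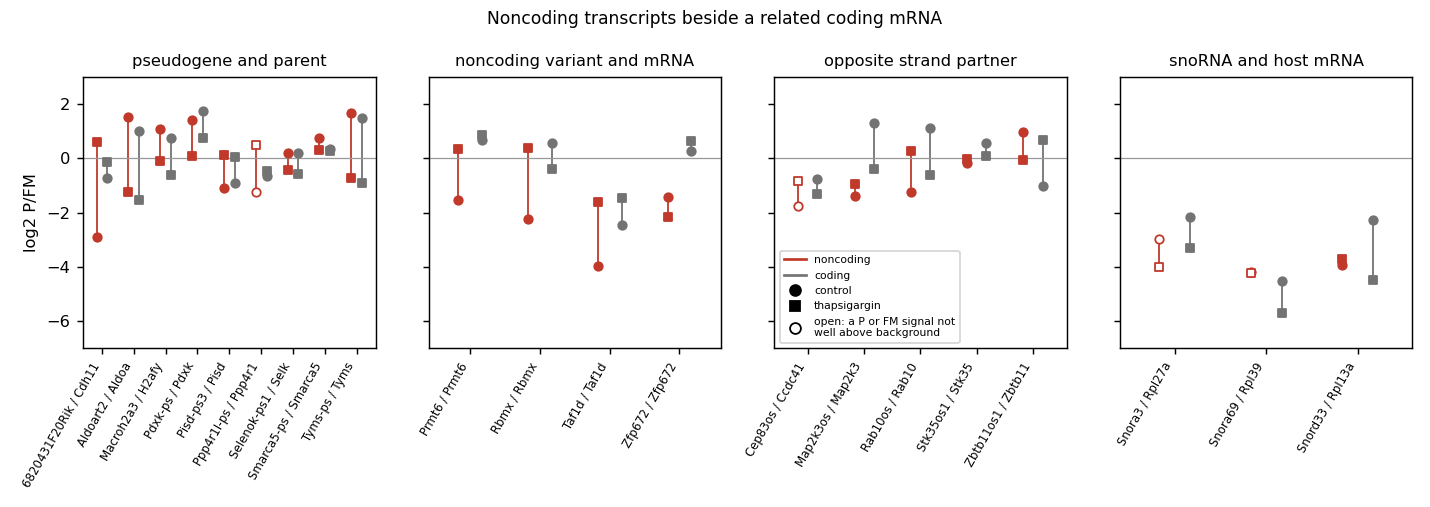
Log2 P/FM in control (circles) and stressed cells (squares) of a noncoding transcript (red) and a related coding mRNA (grey), for pseudogenes or retrogenes and parents, noncoding variants, opposite-strand partners, and snoRNAs and host mRNAs. Pseudogenes such as Tyms-ps lie near their parents, whereas the noncoding variants of Rbmx, Prmt6 and Taf1d start well below the mRNA in control cells; decreases of less than 2.55 would turn positive with spike-in scaling.

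Parents could be set beside pseudogenes and retrogenes without such a run as well. Runs were sought between probes only, so the lack of one does not show that a probe can tell the pair apart. Pdxk-ps, which resembles pyridoxal kinase, went from 1.42 to 0.10 and Pdxk from 1.75 to 0.76. Macroh2a3 went from 1.08 to -0.10 beside the histone variant gene H2afy from 0.76 to -0.61, and Smarca5-ps from 0.74 to 0.30 beside Smarca5 from 0.33 to 0.26. Aldoart2, a retrogene of aldolase A now listed as coding, went from 1.53 to -1.23 and Aldoa from 1.01 to -1.52. 6820431F20Rik stood apart from its named relative, since Cdh11 went only from -0.71 to -0.15. The 9 pairs compared include Pisd-ps3, Tyms-ps and Selenok-ps1, which share a run. Over these 9 pairs the pseudogene minus parent difference had a median of 0.01 in control log2 P/FM and of 0.14 in change. The largest difference in change was 2.96, for 6820431F20Rik.

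Among the 80 other members, 11 were noncoding accessions of genes that also have or are now listed with coding transcripts, and 4 of these genes had a coding accession on the array. The noncoding variants had lower log2 P/FM than the mRNA in control cells in all 5 comparisons, with a median difference of -2.23. Rbmx, an RNA-binding splicing factor, had a noncoding variant that went from -2.23 to 0.38, while its 2 coding accessions went from 0.55 to -0.40 and from 0.92 to 0.10. The noncoding variant of Prmt6, an arginine methyltransferase, went from -1.55 to 0.34 and the coding one from 0.68 to 0.85. Taf1d, a subunit of the RNA polymerase I selectivity factor, went from -3.96 to -1.62 in its noncoding and from -2.46 to -1.46 in its coding accession, with noncoding signals of 115 in control and 1418 in stressed cells in P and 1794 and 4351 in FM. Zfp672, a zinc finger gene, was the exception in direction, going from -1.43 to -2.15 against from 0.28 to 0.63 for the mRNA. In stressed cells the noncoding and coding accessions of Rbmx, Prmt6 and Taf1d were within 0.78 of each other. With normexp the changes of these 3 noncoding accessions were 1.35, 0.92 and 1.22.

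The other members of this set had no coding accession to set beside them. 2610001J05Rik went from -1.15 to 0.27 and Btbd19 from -0.55 to 0.71. 0610012G03Rik went from 0.76 to -1.14, with changes of -1.25 and -2.54 at its 2 probes, and 1810058I24Rik was nearly equal in both conditions (from -1.69 to -1.66).

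Of the 10 transcripts named as antisense or opposite strand, 9 had more FM than P signal in control cells, and the median change was -0.13. Rab10os went from -1.22 to 0.26, opposite to Rab10, a small GTPase of membrane traffic, which went from 1.11 to -0.60. With normexp the change of Rab10os was 0.77. Map2k3os went from -1.40 to -0.93 and Map2k3 from 1.31 to -0.38. In the reverse sense, Zbtb11os1 went from 0.97 to -0.05 and Zbtb11 from -1.03 to 0.66. Stk35os1 hardly changed (from -0.16 to -0.03) beside Stk35 (from 0.57 to 0.07), and Cep83os was at least 0.93 higher while the coding mRNA of the partner locus, Ccdc41 on the array, went from -0.74 to -1.30. Foxd2os had 2 probes that disagreed, at -0.87 and 0.75. The Dnm3os probe had P not well above background on either array and FM signals of 632 and 78.5.

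Mir22hg and Dleu2 are primary transcripts of microRNAs. Mir22hg had signals of 41.8 in control and 36.7 in stressed cells in P and 746 and 179 in FM. FM was lower in stressed cells while P differed little, and log2 P/FM went from -4.16 to -2.29 (a change of 0.74 with normexp). Dleu2 had P not well above background in the control and its change was at least -0.17, a bound that leaves the direction unknown.

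The remaining 55 members were lncRNAs or transcripts without a class, with a median of -0.65 in control and -1.03 in stressed cells and a median change of -0.34. Of them 8 were higher by 1 or more (14.5%, against 11.3% of all transcripts) and 9 lower (16.4%, against 40%). The bright 1110038B12Rik was on the free side in both conditions (from -3.19 to -2.89) with both signals higher in stressed cells. 2810025M15Rik and 1110006O24Rik were bright and lower in stressed cells, going from 1.51 to -0.99 and from -0.49 to -2.98. Gm11961 had the largest decrease of the set (from 0.43 to -2.74), and 1700084E18Rik went from -0.15 to -1.61. With normexp these changes were -1.83 and -0.22. C030034I22Rik, with FM signals of 249 and 88.6, went from -2.61 to -0.61 (a change of 0.78 with normexp).

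Less change was seen in other bright transcripts of this set. 2210013O21Rik went from -0.74 to -1.42, 1500011K16Rik from -0.48 to -1.06, 2010107H07Rik from 0.50 to -0.45 and 3110039M20Rik from -0.44 to -0.01. The largest values rested on dim signals, since 4933407K13Rik and D930016D06Rik had P not well above background in the control and were at least 2.21 and 2.76 higher in stressed cells.

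Transcripts that did not meet the rule include well-known names. Of the list of lncRNAs 11 of 19 accessions did not, among them both of Xist, both of Meg3, Tsix and Airn, so these are given no ratio. Near the edge of the rule, the members with the lowest level (the lower over both arrays of the brighter channel) were Gm10941, B430319G15Rik and 1810014B01Rik, at 17.9, 18.5 and 25.0 scanner units. The brightest transcripts outside it were 9130024F11Rik, 4930412O13Rik and 9530036O11Rik, at 29, 28.8 and 28.5. The levels inside and outside thus overlapped.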

How the data were processed

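NIH3T3 cells on 4 plates in 10% serum were controls or were given 10 µM thapsigargin for 3 h, and 300 ng of RNA from 3 pooled preparations was labelled per array. Labels gave the groups. The deposited intensity values, per the file headers, are mean spot signals and median local backgrounds from Agilent Feature Extraction (version 10.7.1 in the submitters' processing notes), not normalized. The deposited flags mark spots well above background or outliers. The authors also deposited a table of log2 values (Cy3 over Cy5), which covered 16 members. Its column medians were 0.21 and -0.36, and its values correlated at 0.96 on both arrays with the ratios computed here, so scale and direction match.

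The background was subtracted, values below 0.5 were set to 0.5, outlier spots (1 of the members' spots) were left out, and spots that passed the rule were averaged per probe and then per accession, without normalization. Where a channel was not well above background, the bound used the higher of its own signal and the lowest signal well above background among spots without a background outlier flag (P: 14.2 and 11.1; FM: 17.6 and 20.9, control and stress). Groups came from the array's names, or from the current symbol in a RefSeq table (GRCm38.p6), which matched 122 of 138 accessions. The members, lists and pairs were chosen with earlier results of these data known. The names given in the text are all members of the 3 listed groups, and in the other groups the 12 brightest and the 8 largest increases and decreases with all signals above background; further ones were chosen after their values were seen. Steps were tested on simulated data. Alternatives were normexp with offset 50, no background subtraction, processed signals, the authors' values, loess, centring, filters on A above 4.5 or on all signals, single probes and spike-in scaling. Python 3.11.15, pandas 2.3.3, R 4.3.3 and limma 3.58.1 were used.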

Additional observations from a re-analysis of the deposited data

How the results depend on the processing

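No paired analysis was possible because each condition was measured on 1 array of pooled RNA, and for the same reason no replicate could be left out. Of 66 named members, 46 differed by 1 or more between conditions, 32 of these kept their direction under each alternative run on them, 9 reversed only on the spike-in scale, and 19 came to less than 1 with normexp. The named members include the largest changes by choice, so these counts do not stand for all members. Over all 138, 26.1% were higher and 20.3% lower by 1 or more, against 11.3% and 40% of all transcripts. The authors' values held 8 of the 66, and the filters on A and on all signals 63 and 57. The cause of the shifts below was not tested. Values are median changes unless stated. With normexp the stressed median was -0.55, with 16 members higher and 17 lower by 1 or more, lncRNAs 0.79, hosts 1.03, pseudogenes -0.058 and Oip5os1 -0.087. Of 10918 coding mRNAs 983 were then higher and 2161 lower by 1 or more, with a median change of -0.006. Without background subtraction lncRNAs had 1.66, small RNAs 0.50 and Snora3 0.079. Processed signals gave lncRNAs 3.24 and small RNAs 0.67. The authors' values, which hold 16 members, gave a control median of -0.53, a change of -0.91, 3 higher and 7 lower, lncRNAs 2.94 (Norad alone) and others -1.23. Loess gave all members 0.46, hosts 2.92, small RNAs 0.51, pseudogenes 0.31, Gm5069 0.34, Gm6498 0.21 and 3000002C10Rik 0.31. Centring gave all members 0.58 with 15 lower by 1 or more, beside 2416 of 10918 coding mRNAs. It gave lncRNAs 3.05, hosts 2.92, small RNAs 0.57, pseudogenes -0.10 and others 0.48. With A above 4.5 small RNAs had -0.83, and with all signals above background 23 members were higher. Spike-in scaling gave a stressed median of 1.51 and a change of 2.53, with 121 members higher and 0 lower by 1 or more. Of 10918 coding mRNAs 8345 were then higher and 34 lower by 1 or more, with a median change of 1.85. By group the scaling gave lncRNAs 4.996, hosts 4.87, small RNAs 2.52, pseudogenes 1.85 and others 2.43. On that scale Tyms-ps had 0.14, Terc 1.205 (from signals partly not well above background, so that no change is settled), Gm5069 0.997, Gm5766 0.74, Gm6498 0.79, H2-K2 0.29, 1110006O24Rik 0.060, 0610012G03Rik 0.65, 2810025M15Rik 0.052, Snora3 1.4997, 1700084E18Rik 1.09, Gm4371 0.11 and 3000002C10Rik 0.95. The 4 alternatives on list membership were chosen after seeing the data, and none moved a median change by more than the spread between probes (without Norad and Oip5os1, the listed lncRNAs' control median went from -3.82 to -2.17). Signal over background limits the rest: 97 of 138 changes were measured, 13 are lower bounds, 7 upper bounds and 21 unknown.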

Other observations

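Some members had a further probe for another accession of the same gene that is no noncoding RefSeq entry, and these are given as values. For Oip5os1, whose 2 member probes gave only a bound, such a probe had all signals well above background, and its log2 P/FM went from -4.19 to -0.63. One for Taf1d went from -4.30 to -2.77, and one for Ppp4r1l-ps from -3.997 to -2.87. Values moved apart from the member's for 1810058I24Rik, where such a probe went from -1.44 to 0.08. They also did for 8430429K09Rik, where it went from -1.83 to -1.40 while the member's change was -0.33. A probe named for Gm6649 went from -1.07 to 1.32, but it lies on the minus strand and the member probe on the plus strand. It is thus not a second reading of the same transcript. For 2210409E12Rik a further probe went from -0.88 to -2.19 with P not well above background, beside 1.81 in control cells at the member probe. A probe for Snhg1, with P not well above background on either array, had FM signals of 139 and 35.8.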
